A study of Bos taurus with 18 samples.

Results

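The measured transcripts were those of 5 bovine genes grouped under fluid transport into the blastocoel. They are the aquaporins AQP3 and AQP11, the Na+/K+-ATPase beta subunits ATP1B1 and ATP1B3, and the sodium-proton exchanger SLC9A3. Whether each of them moves ions or water into the bovine blastocoel was not tested. All 5 named genes had at least 1 probe set (a group of short probes for a transcript) with that single symbol in the platform annotation, so that 5 of 9155 named genes and 8 of 24016 tested probe sets are described. AQP3, AQP11 and ATP1B1 had 1 each, ATP1B3 had 2 and SLC9A3 had 3.

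The blastocoel is the fluid-filled cavity of the blastocyst, and the trophectoderm, the outer epithelium of the embryo, pumps it full. In the mouse, the Na+/K+-ATPase of the basolateral membrane moves sodium towards the cavity, sodium-proton exchangers of the apical membrane let sodium enter the cell, and water follows the ions, in part through aquaporins. The beta subunits carry no transport activity of their own but are required for the pump to fold and reach the cell membrane.

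RNA came from blastocysts produced in vitro and collected 7 days after insemination. Female and male embryos were obtained with sex-sorted semen of bull 1, bull 2 or bull 3, and the labels give the genotype of all of them as mixed breed. Each of 18 Affymetrix bovine arrays held RNA of a pool of 60 blastocysts, with 3 arrays for each of the 6 groups (female bull 1, female bull 2, female bull 3, male bull 1, male bull 2 and male bull 3). Sex rests on the sorting of the semen, each bull is a single sire, and pooling removes the differences between single embryos. Whether the pools of 1 group stem from different fertilisation runs is not in the labels, and the p-values then rest on how much these pools vary, which may be technical.

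The values were log2 expression values per probe set, so that a difference of 1 is a doubling. Array medians lay between 5.33 and 5.49, and array data give no read depth, so that the number of arrays limits the precision. XIST, the RNA of the inactive X chromosome, ranged from 8.87 to 9.57 in female pools and from 5.93 to 7.28 in male pools, without overlap. KRT18, a keratin of the trophectoderm, averaged 14.04 in each sex, and POU5F1, a pluripotency factor, 11.93 in each sex. KRT18 lay near the highest value on the arrays, 14.15, so its likeness between the sexes may not reflect the amount of trophectoderm. Of the other inner cell mass markers measured, SPP1 was higher in females, at 5.64 ± 0.39 in females and 5.08 ± 0.41 in males (SD, n = 9 each; 0.56 log2, adjusted p = 0.0144 in limma's test), and SOX2 did not pass (-0.10 log2, adjusted p = 0.529). No probe set with the single symbol CDX2, GATA3, GATA2, TFAP2C or NANOG was analysed here. The mean level of 5 trophectoderm markers spanned 7.63 to 7.87 in females and 7.74 to 7.95 in males, with TFAP2A higher in males and none higher in females. The mean level of 12 cumulus and granulosa markers, for cells that surround the oocyte, spanned 5.94 to 6.57 in females and 5.80 to 6.59 in males. Of these, DCN, COL1A1 and CYP19A1 were higher in females and COL1A2 in males, and PTX3, at 2.40 in females and 2.44 in males, lay near the lowest values on the arrays. The mean level of 5 blood markers spanned 4.83 to 5.54 in females and 4.66 to 5.01 in males, with HBB, HBA and ALAS2, which is X-linked, higher in females and CD68 in males. The part of these markers in the results below was not tested. In pooled embryos, fewer trophectoderm cells and less RNA per cell cannot be told apart. A group of 4 arrays had a wide spread around the median array (interquartile range 0.27 to 0.35 log2, against at most 0.20 on the others): female bull 1 replicate 3, male bull 1 replicate 2, male bull 2 replicate 1 and male bull 3 replicate 3.

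The sexes were compared to find transcripts that differ between female and male blastocysts. AQP3 was higher in females, AQP11 was lower in females, and the brightest probe set of SLC9A3 was lower in females. No probe set of the pump subunits ATP1B1 and ATP1B3 passed the test. In limma's test averaged over the bulls, with Benjamini-Hochberg adjustment over all 24016 probe sets and a threshold of 0.05, 3 of the 8 probe sets differed by sex, 1 higher in females and 2 higher in males. Over all probe sets 15.6% differed (3743 of 24016), 8.12% higher in females and 7.47% higher in males. The median female minus male difference over the 8 was 0.00 log2 (-0.0031), beside -0.03 over all 24016.

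**Figure D1:**
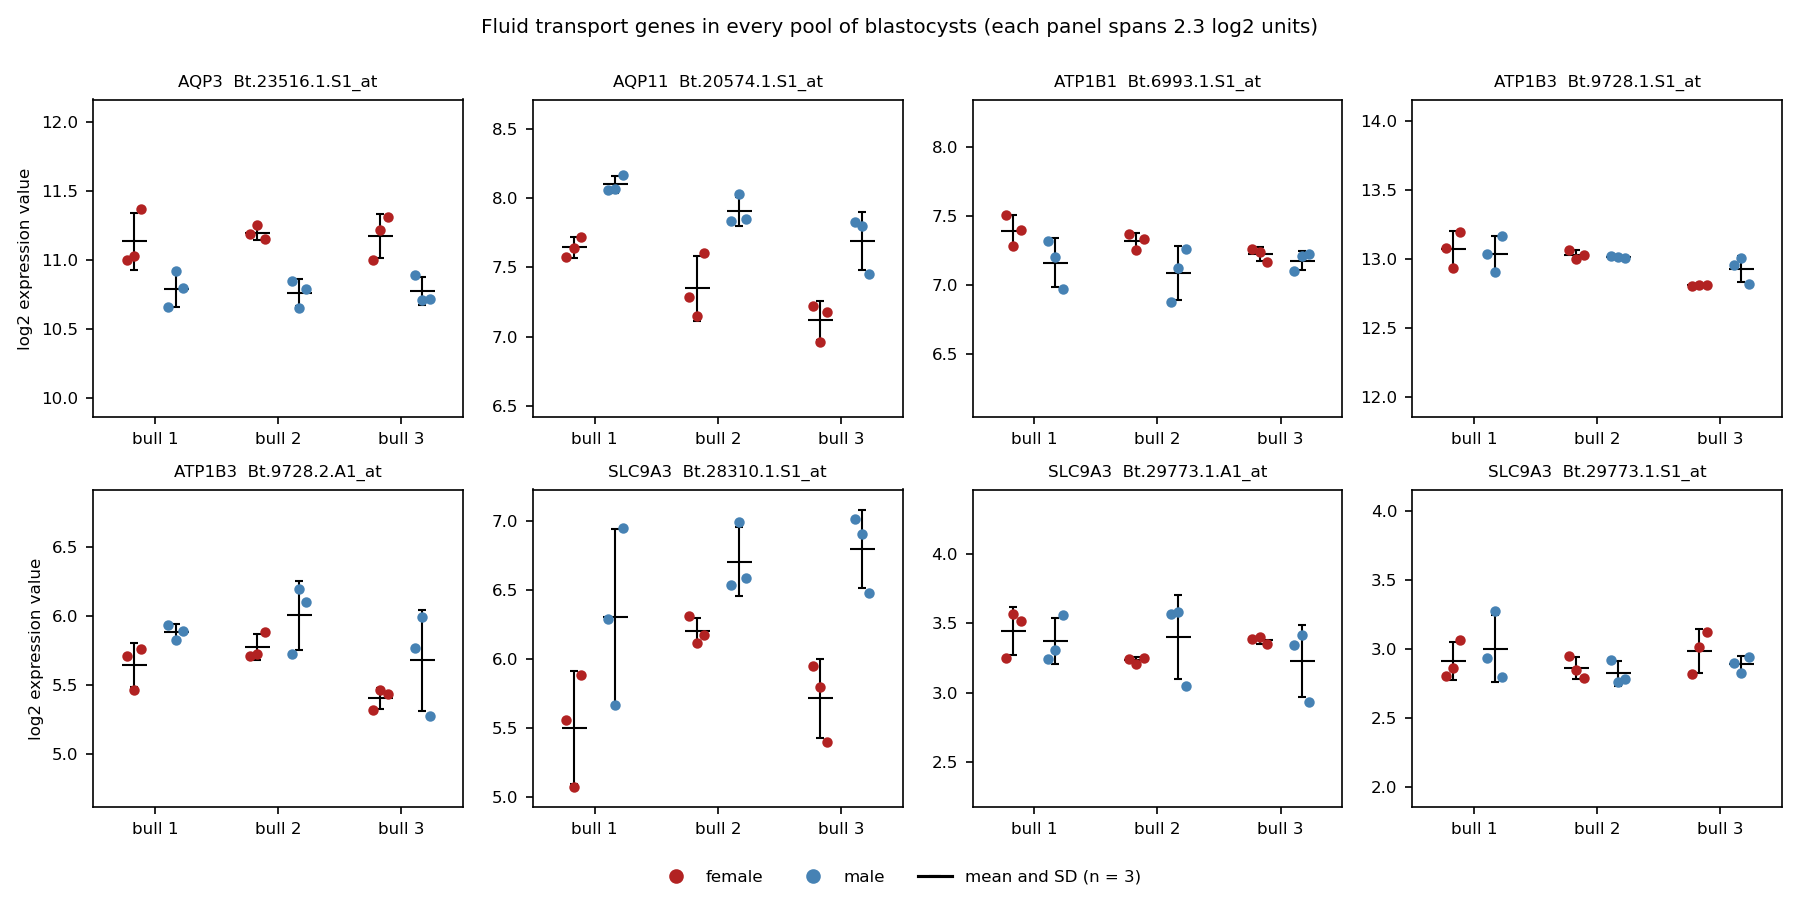
The log2 expression value of each of the 8 probe sets is plotted for every array, with the 3 bulls on the horizontal axis, female pools in red to the left of male pools in blue, and black lines for the mean and SD of 3 arrays. AQP3 is higher and AQP11 lower in the female pools of every bull, without overlap within a bull, whereas the ATP1B3 probe set near 13 and both dim SLC9A3 probe sets show overlapping sexes in most bulls.

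AQP3 is an aquaglyceroporin, a channel for water and glycerol. Its probe set had a lowest value of 11.00, a median of 11.19 and a highest of 11.37 in the 9 female pools, against 10.65, 10.79 and 10.92 in the 9 male pools. Every female pool lay above every male pool, a separation shown by 1.99% of all probe sets in this direction and 0.937% in the other, 2.92% in all. The means were 11.17 ± 0.14 in females and 10.78 ± 0.10 in males (SD over 9 arrays each), a difference of 0.39 log2 (SE 0.07, 95% confidence interval 0.25 to 0.53) or 1.31-fold, with an adjusted p of 0.000351 in limma's test.

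The AQP3 values of female bull 1 were 11.00, 11.03 and 11.37, those of male bull 1 10.66, 10.92 and 10.79. Female bull 2 had 11.19, 11.26 and 11.15, and male bull 2 had 10.85, 10.65 and 10.79. Female bull 3 had 11.00, 11.22 and 11.31, and male bull 3 had 10.89, 10.71 and 10.72. The order of the group means followed sex, with female bull 2 (11.20), female bull 3 (11.18) and female bull 1 (11.13) above male bull 1 (10.79), male bull 3 (10.78) and male bull 2 (10.76). Neighbours in this order overlapped in their ranges except at the step between female bull 1 and male bull 1. Sex accounted for 75.7% of the variance of AQP3 over the 18 arrays and bull for 0.10%.

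AQP11 is a distant member of the aquaporin family that in mammalian cells sits mainly in membranes of the endoplasmic reticulum, and its loss in the mouse gives polycystic kidneys. Its probe set had a lowest value of 6.96, a median of 7.29 and a highest of 7.72 in females, against 7.45, 7.85 and 8.17 in males. The sexes overlapped when the bulls were pooled, with 5 of 9 female pools below the lowest male pool. The means were 7.37 ± 0.27 in females and 7.90 ± 0.21 in males (SD, n = 9 each), a difference of -0.53 log2 (SE 0.07, 95% confidence interval -0.68 to -0.38) or a female to male ratio of 0.693, with an adjusted p of 4.0e-05 in limma's test.

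Within each bull, the AQP11 values of the sexes did not overlap. Female bull 1 had 7.57, 7.64 and 7.72, and male bull 1 had 8.06, 8.07 and 8.17. Female bull 2 had 7.29, 7.15 and 7.61, and male bull 2 had 7.84, 8.03 and 7.85. Female bull 3 had 7.22, 6.96 and 7.18, and male bull 3 had 7.83, 7.80 and 7.45. The lowest male value belonged to replicate 3 of bull 3, an array of wide spread. AQP11 and AQP3 were the only 2 of the 8 probe sets with the sexes apart in the same direction in each bull, which held for 5.85% of all probe sets, 3.34% with females above and 2.51% with females below. Counted bull by bull, the sexes stood apart in 3, 3 and 4 of the 8 probe sets in bulls 1, 2 and 3, where 18.2%, 25.1% and 22.6% of all probe sets did.

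SLC9A3, also called NHE3, exchanges sodium for protons at the apical membrane of transporting epithelia such as kidney tubule and intestine, and is found at the apical membrane of the mouse trophectoderm. Its brightest probe set had a lowest value of 5.07, a median of 5.88 and a highest of 6.31 in females, against 5.67, 6.59 and 7.01 in males. The sexes overlapped, with 3 of 9 female pools below the lowest male pool. The means were 5.81 ± 0.40 in females and 6.60 ± 0.44 in males (SD, n = 9 each), a difference of -0.79 log2 (SE 0.15, 95% confidence interval -1.10 to -0.49) or a female to male ratio of 0.577, with an adjusted p of 0.000794 in limma's test.

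This SLC9A3 probe set varied widely between pools of 1 group, with a within-group SD of 0.37 log2 that exceeded that of 98.8% of all probe sets or equalled it, against a median of 0.16. Female bull 1 had 5.56, 5.07 and 5.88, and male bull 1 had 6.29, 5.67 and 6.94. Female bull 2 had 6.31, 6.12 and 6.17, and male bull 2 had 6.53, 6.99 and 6.59. Female bull 3 had 5.95, 5.80 and 5.40, and male bull 3 had 7.01, 6.90 and 6.48. The sexes stood apart in bulls 2 and 3 and overlapped in bull 1, where male replicate 2, an array of wide spread, was the lowest male pool of all. Without the 4 arrays of wide spread, an analysis added after seeing the data, all 3 called differences were again called in limma's test: 0.38 for AQP3, -0.60 for AQP11 and -1.04 log2 for SLC9A3.

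Neither of the dimmer SLC9A3 probe sets was called (adjusted p = 0.919 and 0.920 in limma's test). The middle one stood at 3.35 ± 0.13 in females and 3.33 ± 0.23 in males (SD, n = 9 each), a difference of 0.02 log2 (95% confidence interval -0.16 to 0.20). The dimmest stood at 2.92 ± 0.12 in females and 2.91 ± 0.15 in males, also a difference of 0.02 log2 (-0.13 to 0.16). Their brightness exceeded that of 20.1% and 11.0% of all probe sets, against 59.3% for the brightest, and brightness depends on the probes as well as on the transcript. The deposited values carry no detection call, so the dim probe sets may not measure the transcript, and which of the 3 reports it is not known. The sex difference of the brightest differed by -0.81 log2 from that of the middle one and by -0.81 from that of the dimmest. Exact permutation of sex within bulls, chosen after the values were seen, gave two-sided p = 0.00125 and 0.00275. Adjusted over the 4 pairs of probe sets of 1 gene, these were 0.005 and 0.0055. The mean over the 3 probe sets gave -0.25 log2 for SLC9A3 (adjusted p = 0.00903 in limma's test over 9155 genes). It contains the brightest probe set and is no separate support for the difference.

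ATP1B1, the most widespread beta subunit of the pump and required for blastocoel formation in the mouse, had a single probe set. Its lowest value, median and highest value were 7.16, 7.28 and 7.51 in females, against 6.87, 7.20 and 7.31 in males. The ranges overlapped, and 4 of 9 female pools exceeded every male pool. The means were 7.31 ± 0.10 in females and 7.14 ± 0.14 in males (SD, n = 9 each), a difference of 0.17 log2 with a 95% confidence interval of 0.04 to 0.30, and the adjusted p of 0.0789 in limma's test missed the threshold. It passed among the brighter 50% of probe sets (adjusted p = 0.0401), with the brightest probe set per gene (0.0476) or the mean per gene (0.0463). These settings left its values and its difference of 0.17 log2 unchanged and altered only what was tested beside it. ATP1B1 also passed without male bull 1 replicate 1 (0.0467) or male bull 2 replicate 3 (0.0422). It stayed uncalled in 12 of 15 other settings, with adjusted p-values up to 0.362, and in 16 of 18 fits without 1 array.

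ATP1B3, another beta subunit, was measured by a very bright probe set and a dimmer one. The bright one, above 99.6% of all probe sets, had a lowest value of 12.80, a median of 13.00 and a highest of 13.20 in females, against 12.82, 13.01 and 13.17 in males. The sexes overlapped almost fully, averaging 12.97 ± 0.14 in females and 12.99 ± 0.10 in males (SD, n = 9 each), a difference of -0.02 log2 with a 95% confidence interval of -0.13 to 0.09. This was the steadiest of the 8 probe sets, with a within-group SD of 0.09 log2. The highest value on the arrays was 14.15, and whether a ceiling of the signal narrows the differences of this probe set was not tested. Sex accounted for 0.90% of its variance and bull for 50.9%.

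The dimmer ATP1B3 probe set ranged from 5.32 to 5.88 in females, median 5.71, and from 5.28 to 6.19 in males, median 5.89. The means were 5.61 ± 0.19 in females and 5.86 ± 0.27 in males (SD, n = 9 each), a difference of -0.25 log2 (95% confidence interval -0.43 to -0.06), with an adjusted p of 0.0636 in limma's test. Its lowest male value, 5.28, came from male bull 3 replicate 3, without which the difference was -0.31 log2 and passed (adjusted p = 0.005). It also passed without male bull 2 replicate 1 (-0.29, adjusted p = 0.0234), both being arrays of wide spread, and without all 4 such arrays (-0.39, adjusted p = 0.000505), more than 1.5 times the full value. Between the bright and the dimmer probe set, the sex differences differed by 0.23 log2 (exact permutation of sex within bulls, chosen after the values were seen, two-sided p = 0.012, and 0.016 adjusted over the 4 pairs of probe sets of 1 gene).

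Whether each sire showed the differences was examined within bulls. AQP11 passed in all 3 bulls, AQP3 in bull 2 and the brightest SLC9A3 probe set in bull 3, which made 5 calls among 24 tests. Leaving out 1 array changed that count to between 2 and 6. The AQP11 difference was -0.46, -0.56 and -0.57 log2 in bulls 1, 2 and 3 (adjusted p = 0.0444, 0.015 and 0.0115 in limma's test). The call in bull 1 was lost in 12 of 18 fits without 1 array and without the 4 arrays of wide spread (-0.51 log2, adjusted p = 0.0538). AQP3 differed by 0.34, 0.44 and 0.40 log2, with adjusted p-values of 0.111, 0.043 and 0.0553. The brightest SLC9A3 probe set differed by -0.80, -0.50 and -1.08 log2, with adjusted p-values of 0.0886, 0.388 and 0.0183. The calls fell on 1, 2 and 2 of 8 probe sets in bulls 1, 2 and 3, where 4.2%, 3.13% and 4.18% of all probe sets were called.

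**Figure D2:**
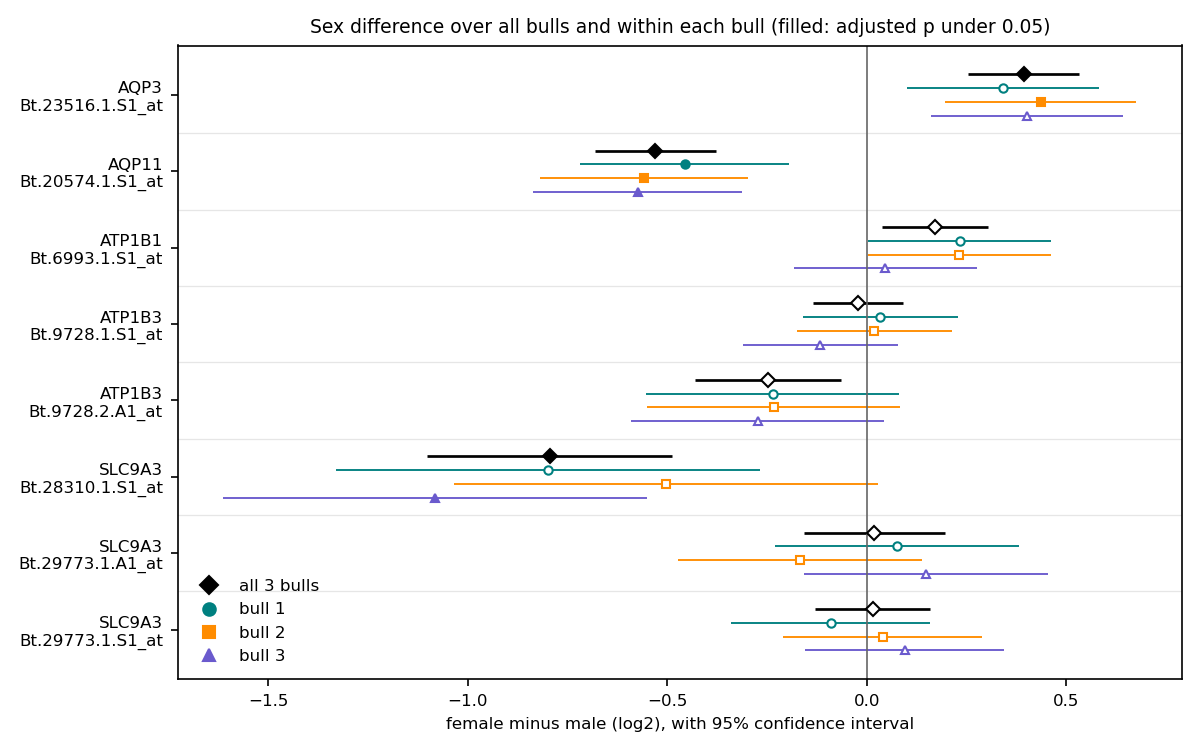
Female minus male differences in log2 units are shown for each of the 8 probe sets over all bulls (diamonds) and within bulls 1, 2 and 3 (circles, squares and triangles), with 95% confidence intervals from limma's standard errors and filled symbols where the adjusted p is under 0.05. The AQP11 intervals lie below 0 and the AQP3 intervals above 0 in all 3 bulls, and those of the brightest SLC9A3 probe set lie below 0 in bulls 1 and 3.

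ATP1B1 was 0.23, 0.23 and 0.05 log2 higher on average in females of bulls 1, 2 and 3, and none of these passed (adjusted p = 0.292, 0.344 and 0.911 in limma's test). The bright ATP1B3 probe set differed by 0.03, 0.02 and -0.12 log2, and the dimmer one by -0.24, -0.23 and -0.27. In all, 5 of the 8 probe sets had the same sign in all 3 bulls, as did 48.1% of all probe sets. No sex difference was called as differing between bulls for any of the 8 in limma's F test of the interaction, whose unadjusted p ranged from 0.296 to 0.978, so that none was under 0.05. Over the whole array that test called 0 of 24016 (0%). An unadjusted p under 0.05 was reached by 656 (2.73%), fewer than chance alone gives on average.

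Across bulls, AQP11 formed a ladder, with each sex highest in bull 1, between in bull 2 and lowest in bull 3. The group means were 8.10 ± 0.06, 7.91 ± 0.11 and 7.69 ± 0.21 in males of bulls 1, 2 and 3, and 7.64 ± 0.08, 7.35 ± 0.23 and 7.12 ± 0.14 in females (SD, n = 3 each). The steps from male bull 1 to male bull 2 and from male bull 2 to male bull 3 had no overlap of pools, while the neighbours below them overlapped. The second was narrow, with 7.84 as the lowest of male bull 2 and 7.83 as the highest of male bull 3. The share of all probe sets without such overlap was not counted. A sign of RNA integrity, given below, also fell from bull 1 through bull 2 to bull 3. Over both sexes neither step was called (adjusted p = 0.159 for bull 2 against bull 1 and 0.176 for bull 3 against bull 2 in limma's test). Bull accounted for 29.6% of the variance of AQP11, sex for 57.1% and differences between pools of a group for 12.7%.

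Between bulls, 1 of 24 tests passed, that of AQP11 in bull 3 against bull 1. The means were 7.41 ± 0.35 in bull 3 and 7.87 ± 0.26 in bull 1 (SD, n = 6 arrays each), a difference of -0.47 log2 or a ratio of 0.724 (adjusted p = 0.00874 in limma's test). The whole-array shares called were 1.52% for bull 2 against bull 1, 3.53% for bull 3 against bull 1 and 3.74% for bull 3 against bull 2. The 5′ minus 3′ signal of 3 control transcripts, a sign of RNA integrity, averaged -0.69 ± 0.31 log2 in bull 3. It was -0.25 ± 0.10 in bull 2 and -0.10 ± 0.32 in bull 1 (SD, n = 6 arrays each). The bulls thus stood in the same order by this index as by AQP11, and whether the index underlies that order was not tested. With this index as a covariate, added after seeing the data, the AQP11 difference between these bulls was -0.38 log2 and did not pass (adjusted p = 0.619). Over all bulls the index was -0.35 in females and -0.35 in males, but it differed between the sexes by -0.22 in bull 1, 0.01 in bull 2 and 0.22 log2 in bull 3. With the covariate, AQP3, AQP11 and SLC9A3 kept their calls for sex over all bulls, and AQP11 lost its call within bull 1 (-0.42 log2, adjusted p = 0.0721). A bull cannot be told apart from a production or scan batch shared by its arrays.

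The other members showed no called bull difference. The dimmer ATP1B3 probe set had the smallest adjusted p among them, at 5.54 ± 0.28 in bull 3 and 5.89 ± 0.21 in bull 2 (SD, n = 6 each), a difference of -0.35 log2 (adjusted p = 0.0775 in limma's test). The bright ATP1B3 probe set was at 12.87 ± 0.09 in bull 3, against 13.05 ± 0.12 in bull 1, a difference of -0.18 log2 (adjusted p = 0.125). Its lowest pools were the 3 of female bull 3, at 12.80, 12.81 and 12.81, which lay below all 3 of male bull 3. The brightest SLC9A3 probe set averaged 6.45 ± 0.32 in bull 2 and 5.90 ± 0.65 in bull 1, a difference of 0.55 log2 (adjusted p = 0.122). Its group means ran from male bull 3 (6.80), male bull 2 (6.70) and male bull 1 (6.30) to female bull 2 (6.20), female bull 3 (5.71) and female bull 1 (5.50), and only female bull 2 and female bull 3 stood apart among the neighbours. For ATP1B1, the order was female bull 1 (7.39), female bull 2 (7.32), female bull 3 (7.22), male bull 3 (7.17), male bull 1 (7.16) and male bull 2 (7.08), with every neighbour overlapping.

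Other genes of ion and water transport were examined to place the 5 members among them, with the brightest probe set of each. Of 68 listed genes 40 had a named probe set, and of these none was higher in females, 4 were higher in males and 36 did not pass. This is 10.0% of the 40, beside 20.8% of 9155 genes over the whole array on their brightest probe sets. These shares were not matched for brightness. Several of the 40 were dim, such as FXYD2 and ATP1B4, above only 5.6% and 8.2% of all probe sets. Others were bright, such as EZR, above 99.65%. Over the whole array, the share called was higher among brighter probe sets, as given below. Whether brightness accounts for the lower share in these lists was not tested. The median difference was -0.04 log2, beside -0.01 over those 9155 genes.

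No called difference was found among the other measured parts of the pump, several of which were dim. Of 13 further Na+/K+-ATPase subunits and FXYD proteins, small regulators of the pump, 7 were measured and 0 differed in limma's test, with 0 at an unadjusted p under 0.05. FXYD6 had the smallest adjusted p, at 8.12 ± 0.15 in females and 7.98 ± 0.16 in males (SD, n = 9 each; 0.15 log2, adjusted p = 0.247). No alpha subunit, the part that moves the ions, was analysed here. Of 11 other aquaporins 5 were measured and 0 differed, with 1 at an unadjusted p under 0.05, AQP7, a glycerol channel, at 5.65 ± 0.11 in females and 5.50 ± 0.18 in males (0.15 log2, adjusted p = 0.182). AQP4, MIP, AQP1 and AQP5 were dim as well, averaging 3.26, 3.74, 3.83 and 4.41, with the same limit.

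Of the other sodium-proton exchangers and their scaffolds, 7 of 14 were measured, and 2 scaffolds were lower in females. PDZK1, a scaffold with several PDZ domains that binds apical transporters including SLC9A3, stood at 5.76 ± 0.29 in females and 6.13 ± 0.32 in males (-0.37 log2, adjusted p = 0.0415 in limma's test). NHERF2, a scaffold through which kinases act on SLC9A3, stood at 5.21 ± 0.19 in females and 5.45 ± 0.16 in males (-0.24 log2, adjusted p = 0.0376). Both calls were fragile: leaving out 1 array ended that of PDZK1 in 12 of 18 fits and that of NHERF2 in 13 of 18, with adjusted p-values up to 0.0922 and 0.0837. EZR, the ezrin that ties such scaffolds to actin, and NHERF1, with values of 13.12 and 12.03 in females and 13.20 and 12.12 in males, did not pass. SLC9A5 was the only other exchanger measured, at 3.95 ± 0.18 in females and 4.13 ± 0.12 in males (-0.18 log2, adjusted p = 0.0616).

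Among 15 measured of 20 ion and bicarbonate routes, SCNN1G alone differed. It encodes the gamma subunit of the epithelial sodium channel and stood at 5.42 ± 0.21 in females and 5.70 ± 0.11 in males (SD, n = 9 each; -0.28 log2, adjusted p = 0.00946 in limma's test). Without bull 2 its difference was -0.17 log2 and did not pass (adjusted p = 0.365), and its dimmer probe set gave -0.10 (adjusted p = 0.533). SCNN1A and SCNN1B, the alpha and beta subunits, differed by -0.06 and 0.12 log2 and did not pass. CFTR, a chloride channel, was at 9.07 ± 0.12 in females and 9.15 ± 0.24 in males (-0.07 log2, adjusted p = 0.677).

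Of 10 kinases and ligases known to act on these transporters, 6 were measured and PRKACA differed. It is the catalytic subunit of protein kinase A, which inhibits SLC9A3 in kidney and intestine of mammals, and stood at 7.98 ± 0.13 in females and 8.22 ± 0.17 in males (-0.24 log2, adjusted p = 0.0034 in limma's test). The call held in all 18 fits without 1 array (adjusted p up to 0.00982) and was lost without bull 2 (-0.25 log2, adjusted p = 0.053) or bull 3 (-0.21 log2, 0.0816), with differences close to the full one. NEDD4L, a ubiquitin ligase of the epithelial sodium channel, was at 9.26 ± 0.13 in females and 9.09 ± 0.17 in males (0.18 log2, adjusted p = 0.0881).

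**Figure D3:**
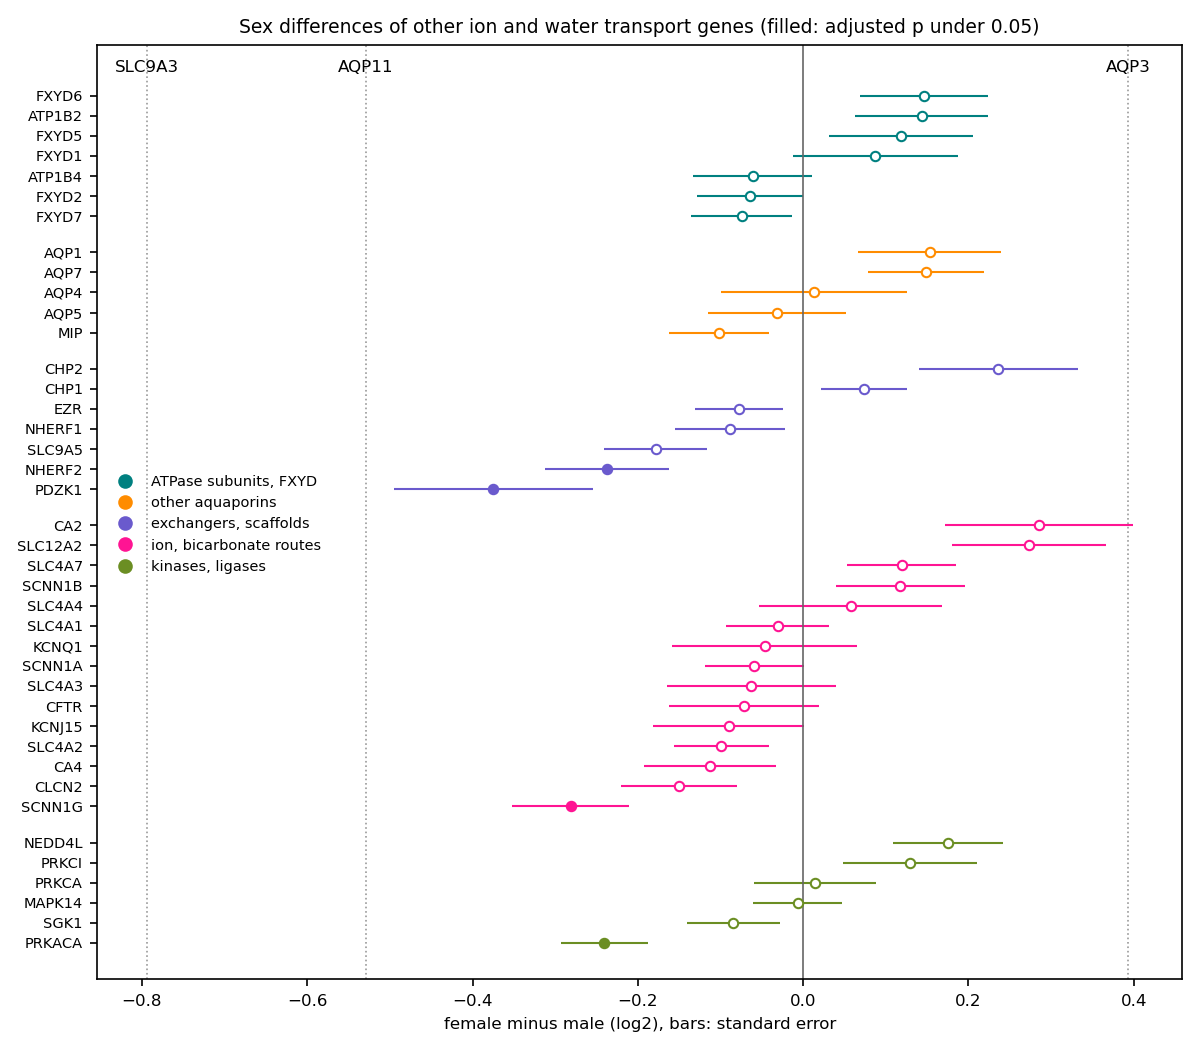
Female minus male differences in log2 units with standard errors are shown for 40 other transport genes, grouped and coloured by list, with filled symbols where the adjusted p is under 0.05 and dotted lines at the called differences of AQP3, AQP11 and the brightest SLC9A3 probe set. The filled symbols are PDZK1, NHERF2, SCNN1G and PRKACA, all below 0, and no gene of the lists lies beyond any of the 3 dotted lines in its direction.

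The genes most like each member over the 18 arrays were taken from 9027 other genes by Pearson's r of log2 values, as a description with no test, since they are the highest of many. The arrays share their hybridisation and normalisation. AQP3 was most like GUCA2A (r = 0.948, Spearman's rho = 0.940), RBM10 (r = 0.935) and TNNI3 (r = 0.927), and all 3 were higher in females (0.60, 0.59 and 0.96 log2). After the 6 group means were removed, these correlations were 0.853, 0.803 and 0.729. AQP11 was most like SLC35E2B (r = 0.931, rho = 0.913), TMCO3 (r = 0.912) and BCKDHB (r = 0.909), a subunit of the branched-chain keto acid dehydrogenase, and all 3 were lower in females (-0.36, -0.16 and -0.45 log2). After removal of the group means these correlations were 0.791, 0.740 and 0.535.

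The brightest SLC9A3 probe set was most like SLC17A5 (r = 0.919, rho = 0.913), the lysosomal sialic acid exporter, ACSL6 (r = 0.899), an acyl-CoA synthetase, and ASCL2 (r = 0.871), a transcription factor of the trophoblast. These were lower in females by -0.34, -0.25 and -0.42 log2, and after removal of the group means the correlations were 0.821, 0.811 and 0.766. ATP1B1 was most like NRIP3 (r = 0.814, rho = 0.804), STK38L (r = 0.795) and RCAN3 (r = 0.795), and after removal of the group means the correlations were 0.596, 0.684 and 0.625. The bright ATP1B3 probe set was most like TMEM59 (r = 0.891, rho = 0.825), CLIC1 (r = 0.880) and AASDHPPT (r = 0.874), none of which differed by sex (adjusted p = 0.664, 0.767 and 0.433 in limma's test), and here the correlations without the group means were 0.886, 0.841 and 0.915. All 5 member genes are autosomal in the RefSeq gene table of the assembly ARS-UCD2.0.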

How the data were processed

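The labels' protocols give 50 ng of total RNA as the input to amplification. The authors deposited 1 log2 value for each probe set and array. RMA and Partek 6.4 are listed in the submitters' processing notes, with no role for either. That the scale is log2 follows from the range, 1.89 to 14.15. RMA makes the distributions of arrays alike, which hides any shift shared by all transcripts and shrinks differences of dim probe sets. No scan batch is stated in the sources used here.

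Control probe sets (112 of 24128) were left out. Members were matched by platform symbol, and other genes by symbols updated through the gene table of ARS-UCD2.0 (13263 of 13292 probe sets with 1 gene matched). A mean for each of the 6 groups was estimated by lmFit and eBayes (limma 3.58.1, R 4.3.3), with 12 residual degrees of freedom, on all 24016 probe sets, with Benjamini-Hochberg adjustment and a threshold of 0.05. Means are given with the SD. Probe sets of 1 gene were compared by exact permutation of sex within bulls (8000 arrangements, smallest two-sided p 0.00025). The steps were tested on simulated data. Alternatives were an additive model, no moderation, the brighter 50%, quantile normalization, an intensity trend, array weights, a block for sample number, omission of each array or bull, bull as the replicate, and 1 value per gene (the mean or the brightest probe set). Probe sets are called by brightness where a gene has several, and their platform names stand in the panel titles of the plot of values by array. Leaving out 4 arrays of wide spread and the RNA index as a covariate were chosen after seeing the data.

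The members and gene lists were chosen with earlier results of these data known. All probe sets of the members are named, and of each list every gene called for sex or, where none was, the one with the smallest p; other list genes were named after their values were seen. Figures were drawn with matplotlib 3.10.9.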

Additional observations from a re-analysis of the deposited data

Results flagged for a closer look

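In the dimmest SLC9A3 probe set, male bull 1 replicate 2 stood at 3.27, apart from the other 8 male pools, the nearest of which was at 2.94. This array has a wide spread (0.33 log2) and the highest 5′ minus 3′ index of all (0.45). Of 16 groups of 9 arrays examined this was the only one with a pool so far from the rest, and chance flags about 1 in 20 groups.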

How the results depend on the processing

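AQP3, AQP11 and the brightest SLC9A3 probe set kept their direction and their call for sex in all 18 fits without 1 array and in the 15 other settings. Their differences ranged over these from 0.35 to 0.42, from -0.60 to -0.50 and from -1.04 to -0.25 log2, the last end being the mean over the SLC9A3 probe sets. The 3 called probe sets became 5 among the brighter 50%, where fewer probe sets were tested, and 3 to 4 without 1 array. Over the whole array, 3572 of that brighter 50% were called for sex, beside 3743 of all 24016, so the share called rose there too. The dimmer ATP1B3 probe set passed in 7 of 13 other settings. Differences near 0 changed sign. Without 1 array the bright ATP1B3 probe set ranged from -0.044 to 0.0010, the middle SLC9A3 probe set from -0.039 to 0.052 and the dimmest from -0.019 to 0.060. Without bull 3 they stood at 0.026, -0.045 and -0.025, and the middle SLC9A3 one at -0.0090 without bull 1 and -0.025 without the 4 arrays of wide spread.

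The 5 calls within bulls became 2 without moderation, 9 with array weights, 1 without bull 2, 2 without bull 3 and 2 to 6 without 1 array. Leaving out bull 2 or bull 3 removes the tests within that bull, and with them its own 2 calls. The call of AQP11 in bull 1 was also lost without moderation (adjusted p = 0.0688) and in 12 of 18 fits without 1 array, that of AQP3 in bull 2 in 8, that of SLC9A3 in bull 3 in 4, and those of AQP11 in bulls 2 and 3 in 3 and 2. The sample number as a replicate block left 3 of these calls, without AQP11 in bull 1 (adjusted p = 0.0679) and AQP3 in bull 2 (0.0607), and ended the call of PDZK1 (0.0592). The labels do not say whether the numbers pair the samples. Same-numbered arrays of different groups had deviations correlated at -0.015 on average, over 0.1 in 4 of 45 pairs. Arrays of other numbers stood at 0.0080, over 0.1 in 18 of 90 pairs, and 5 of 18 arrays correlated best with their own number. These values show no likeness by number, but they cannot exclude a shared run. The 1 call between bulls became 2 among the brighter 50%, with an intensity trend and without the 4 wide arrays, 4 with array weights, 0 with the RNA index as a covariate, 0 without bull 1 or bull 3, which leaves 1 pair of bulls, and 1 to 2 without 1 array. The 4 other transport genes became 2 without moderation, 9 with array weights, 1 without bull 2, 1 without bull 3 and 2 to 6 without 1 array. Over the whole array the 3743 calls for sex became 3551 without moderation, 5588 with array weights, 2044 without bull 2 and 2182 without bull 3. Calls within and between bulls were not counted over the whole array in these settings. The causes were not tested.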

Other observations

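A further set of probe sets fell outside the naming rule, which took the brightest of each gene, and was singled out after its values were seen. SLC12A2, the sodium-potassium-chloride cotransporter that brings salt into secretory epithelia, was higher in females in its dimmer probe set (0.37 log2, adjusted p = 0.0102 in limma's test), while its brightest stood at 6.83 ± 0.23 in females and 6.56 ± 0.20 in males (SD, n = 9 each; 0.27 log2, adjusted p = 0.0554). MAPK14, the p38 kinase whose activity the mouse embryo needs to form a blastocoel, was lower in females in a probe set of middle brightness (-0.22 log2, adjusted p = 0.0297), while its brightest gave -0.01 (adjusted p = 0.958) and its dimmest -0.09 (adjusted p = 0.495).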
